A study of Homo sapiens with 22 samples.

Results

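The mouse genes described here encode the contractile apparatus that smooth muscle cells, pericytes and activated fibroblasts share. They are 10 genes of smooth muscle actins and actin- or myosin-associated proteins, taken by symbol from the 54532 genes of the table of mouse RNA: Acta2, Actg2, Tagln, Cnn1, Myl9, Myh11, Mylk, Tpm1, Tpm2 and Lmod1. All 10 were among the 14287 mouse genes tested.

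The tumours were xenografts of H3122, an established human lung adenocarcinoma line that carries an ALK fusion, and the RNA of whole tumours was sequenced in bulk. RNA read as mouse in such a tumour is taken here to come from the host, so the mouse table is used to describe the stroma. Reads that fit both species may add to it. The hosts were NSG mice, an immunodeficient strain without mature lymphocytes, or hHGF-NSG mice, the same strain carrying human hepatocyte growth factor (HGF), the ligand of the MET receptor. In each host the tumours were therapy-naive or had been treated with alectinib, an ALK inhibitor, for 2 weeks or 6 weeks. All 6 groups thus share 1 tumour line and the NSG background. The promoter that drives human HGF, the age of the mice, the drug dose and whether each sample was a separate animal are not stated in the sources used here. A p-value therefore measures sample-to-sample spread, which may in part be technical. The mouse table held 20 of the 22 samples: in NSG hosts 3 naive, 4 at 2 weeks and 3 at 6 weeks, and in hHGF-NSG hosts 3, 4 and 3. NSG naive replicate 2 and NSG 6-week replicate 4 have human values only, and their stroma was not analysed here.

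Contraction in these cells needs actin filaments of smooth muscle type, a myosin motor whose regulatory light chain is phosphorylated by a dedicated kinase, and proteins that stabilise or cap the filaments. Serum response factor (SRF), with cofactors of the myocardin family, drives many of these genes, and TGF-beta raises their transcription. In tumour stroma they are known as features of contractile, matrix-remodelling fibroblasts (myofibroblasts) and of the mural cells around vessels, and none of the 10 marks 1 of these cell types alone.

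Levels are given as FPKM, read fragments scaled by gene length and by library size, which can be compared between genes as well as between libraries. The mouse reads behind them ranged from 895826 to 5766509 per library, with fewer in naive tumours, where mouse reads made up 5.5% to 13.5% of all reads, than at 6 weeks, where they made up 16.9% to 29%. A library labelled NSG naive replicate 1 held 43 reads of human HGF, whereas the other NSG libraries held 0 to 6 and the hHGF-NSG libraries 13 to 79. It therefore goes against its label, and the members' changes in NSG hosts, the counts of gene lists and the ratios that rest on it are given with and without it. Changes are differences in log2(FPKM + 1) with their standard error (SE) from limma, and a gene is called when its Benjamini-Hochberg adjusted p over all tested mouse genes is under 0.05. Because the samples are bulk tissue, fewer contractile cells and less contractile RNA per cell cannot be told apart. Each level is relative to the mouse reads of its library, so more RNA of other host cells would lower it as well. That reading cannot be told apart from these either, and a lower FPKM is not by itself less contractile RNA in the tumour.

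In naive tumours the contractile RNA was abundant and dominated by 1 gene. Acta2 averaged 633 ± 163 FPKM (SD, n = 3) in NSG and 695 ± 177 (n = 3) in hHGF-NSG hosts. Myl9, Tpm1 and Actg2 followed at group means between 107 and 205 FPKM. Tpm2 stood at 69.6 and 62.0 FPKM, Cnn1 at 19.7 and 22.3, and Myh11 at 13.0 and 13.3, in NSG and hHGF-NSG hosts respectively. Mylk (9.13 and 8.24 FPKM), Lmod1 (4.636 and 5.203) and Tagln (4.57 and 3.24) were lowest. Of the neighbours in this order, the range of Acta2 over the naive libraries lay above that of Myl9, and the range of Tpm2 above that of Cnn1, in both hosts. The ranges of the other neighbours overlapped in at least 1 host. Tagln, which encodes transgelin and is usually a plentiful smooth muscle RNA, was thus among the lowest of the 10.

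The level fell over treatment for most of the 10 genes. After 6 weeks of alectinib, 9 of 10 were called lower in NSG hosts, where 8.59% of all tested mouse genes were called lower, and 8 of 10 in hHGF-NSG hosts, where 8.12% were. None was called higher, where 8.81% and 9.67% of all tested genes were, in NSG and hHGF-NSG hosts. The 8 genes called in hHGF-NSG hosts were all among the 9 called in NSG hosts. At 2 weeks the count was smaller: 2 of 10 were lower in NSG hosts (all tested genes: 4.48%) and 4 of 10 in hHGF-NSG hosts (3.56%). The NSG count at 2 weeks was 0 without NSG naive replicate 4 or NSG 2-week replicate 1. The median change of the 10 genes at 6 weeks was -1.73 in NSG and -1.52 in hHGF-NSG hosts on the log2 scale, against 0.05 and 0.06 over all tested genes. At 2 weeks the medians were -0.42 and -0.95, against 0.03 in both hosts over all tested genes.

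**Figure D1:**
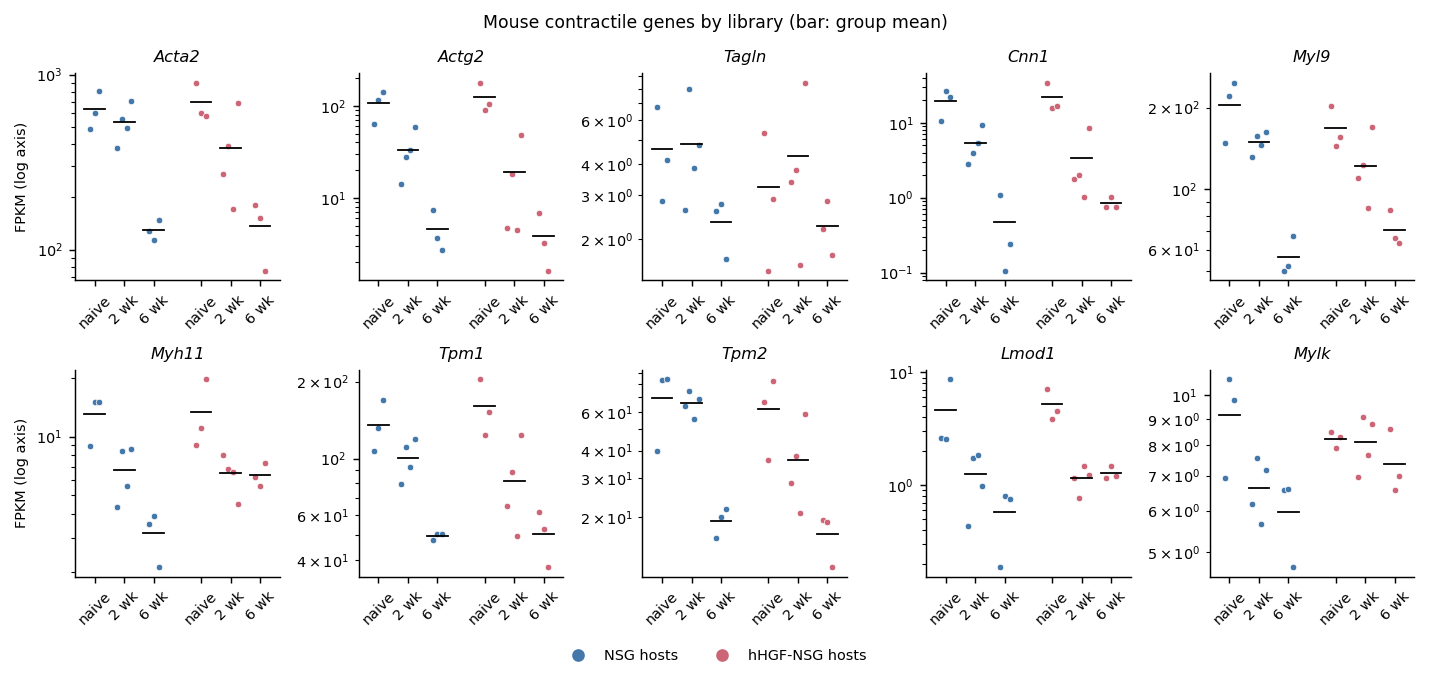
FPKM (log axis) of the 10 mouse contractile genes in each of the 20 libraries, with 1 panel per gene, 1 point per library and a bar at the group mean; NSG hosts are blue and hHGF-NSG hosts red. For every gene but Tagln and Mylk, all 6-week libraries lie below all naive libraries of the same host. Those 2 overlap in hHGF-NSG hosts. The share of all tested genes whose libraries are apart in this way is not given here.

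The actins showed the depth of the fall and its timing. Acta2 encodes alpha smooth muscle actin, the standard marker of myofibroblasts, and lies on chromosome 19 (mm10, chr19:34241090-34255336, minus strand). In NSG hosts its FPKM was 488, 601 and 809 in naive tumours, 379.9, 556, 498 and 709.7 at 2 weeks, and 128, 114 and 148 at 6 weeks. In hHGF-NSG hosts it was 899, 604 and 583 in naive tumours, 271, 389, 171 and 685 at 2 weeks, and 181, 152 and 75.6 at 6 weeks. Every 6-week library was below every naive library of its host, while the 2-week libraries overlapped the naive ones in both hosts. The change at 6 weeks was -2.25 ± 0.39 (SE) in NSG hosts (limma adjusted p = 0.000659) and -2.41 ± 0.39 in hHGF-NSG hosts (adjusted p = 0.000437), a mean 4.87-fold and 5.11-fold lower. At 2 weeks it was -0.24 ± 0.37 and -1.03 ± 0.37, neither called (adjusted p = 0.75 and 0.1). In NSG hosts Acta2 also fell between 2 and 6 weeks, by 2.01 on the log2 scale (adjusted p = 0.00663).

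Actg2 encodes gamma smooth muscle actin, the form typical of gut and bladder muscle (chr6:83512905-83536265, minus strand). In NSG hosts it was at 62.7, 117 and 143 FPKM in naive tumours, 14.2, 27.9, 33 and 58.3 at 2 weeks, and 7.33, 3.69 and 2.75 at 6 weeks. Levels in hHGF-NSG hosts were 178, 91.1 and 104 FPKM, then 4.72, 18.3, 4.44 and 48.6, then 6.79, 3.28 and 1.62. Here the groups were already apart at 2 weeks in both hosts, with the highest treated library below the lowest naive one. At 6 weeks Actg2 was 23.4-fold lower than naive in NSG and 32.0-fold lower in hHGF-NSG hosts (log2 change -4.28 ± 0.67 and -4.76 ± 0.67, adjusted p = 0.000276 and 0.000148), with 11 to 51 reads per library left at 6 weeks. At 2 weeks the change was -3.19 ± 0.63 in hHGF-NSG hosts (adjusted p = 0.00505) and -1.74 ± 0.63 in NSG hosts, where it was not called (adjusted p = 0.101).

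The actins did not fall in step. Actg2 stood at 0.128 to 0.194 of the FPKM of Acta2 in NSG naive libraries and at 0.151 to 0.198 in hHGF-NSG naive libraries. At 2 weeks that ratio was 0.0373 to 0.0821 and 0.0174 to 0.071, and at 6 weeks 0.0186 to 0.0573 and 0.0214 to 0.0376, so no treated library of either host reached the naive range. An exact two-sided permutation test of the log2 difference, with labels exchanged within each host, gave p = 0.000816 at 2 weeks and p = 0.005 at 6 weeks. Adjusted over the 12 ratio tests made, which were chosen after the values were seen, these were 0.0098 and 0.01, and both raw values are the smallest the arrangements allow. Without the library labelled NSG naive replicate 1 both adjusted values were 0.012.

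The actin-binding proteins calponin 1 and transgelin behaved differently from each other. Cnn1 (calponin 1, chr9:22099216-22109630, plus strand) restrains the myosin motor and marks differentiated smooth muscle. Its FPKM in NSG hosts was 10.5, 26.8 and 21.9 in naive tumours, 2.84, 3.94, 5.37 and 9.27 at 2 weeks, and 1.08, 0.105 and 0.24 at 6 weeks, the last from 8, 1 and 2 reads. The hHGF-NSG values were 34.2, 15.8 and 16.8, then 1.79, 2.01, 1.01 and 8.56, then 0.757, 1.03 and 0.752 from 9 to 16 reads. No treated library of either host overlapped the naive ones. Cnn1 was called in all 4 comparisons with naive tumours, by -1.71 ± 0.45 and -2.62 ± 0.45 at 2 weeks (adjusted p = 0.026 and 0.002) and by -3.78 ± 0.48 and -3.57 ± 0.48 at 6 weeks (adjusted p = 4.66e-05 and 0.000109), in NSG and hHGF-NSG hosts respectively. The 2-week call in NSG hosts was lost when any of 5 libraries was left out: NSG naive replicate 3 or 4 or NSG 2-week replicate 1, 2 or 3. That call was also lost with a pseudocount of 0.1 and with no filter on low values.

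Tagln (chr9:45929619-45936058, minus strand) cross-links actin filaments. Its FPKM was 6.76, 2.84 and 4.13 in NSG naive tumours, 2.61, 7.94, 3.86 and 4.76 at 2 weeks and 2.59, 2.75 and 1.65 at 6 weeks. The hHGF-NSG libraries gave 5.34, 1.49 and 2.88, then 3.39, 3.78, 1.57 and 8.46, then 2.19, 2.83 and 1.73. These values rest on 5 to 41 reads per library, and in hHGF-NSG hosts all 3 groups overlapped. Tagln was called in no comparison, with changes at 6 weeks of -0.70 ± 0.42 in NSG and -0.29 ± 0.42 in hHGF-NSG hosts (adjusted p = 0.276 and 0.688). The gene overlaps Pcsk7 by 108 bases and the antisense gene Gm48529 by 3627 bases on the other strand, and since the sources used here do not say whether counting used strand, reads in those stretches cannot be told apart.

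Among the myosin proteins, the regulatory light chain and the heavy chain fell and the kinase moved least. Myl9 encodes the regulatory light chain (chr2:156775420-156781658, plus strand). In NSG hosts it was at 148, 220.5 and 247 FPKM in naive tumours, 132, 157, 146 and 162 at 2 weeks, and 50.1, 52 and 67.1 at 6 weeks. Hosts with human HGF had 203, 144 and 156 FPKM, then 110.3, 123, 85.4 and 169.5, then 84, 65.9 and 63.4. Naive and 2-week libraries overlapped in both hosts, and all 6-week libraries lay below both. At 6 weeks it changed by -1.82 ± 0.23 in NSG (adjusted p = 3.64e-05) and -1.22 ± 0.23 in hHGF-NSG hosts (adjusted p = 0.00116), a mean 3.64-fold and 2.36-fold lower.

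Myh11, the smooth muscle myosin heavy chain and one of the more specific markers of vascular smooth muscle, lies on chromosome 16 (chr16:14194535-14291372, minus strand). Its FPKM in NSG hosts was 8.9, 15 and 15.1 in naive tumours, 4.32, 8.46, 5.53 and 8.66 at 2 weeks and 3.54, 3.9 and 2.12 at 6 weeks. In hHGF-NSG hosts it was 9.07, 11.1 and 19.8, then 8.05, 6.79, 6.6 and 4.51, then 6.16, 5.58 and 7.28. Treated libraries were below naive ones at both times in both hosts, but in hHGF-NSG hosts the 6-week range lay within the 2-week range. At 6 weeks Myh11 changed by -1.73 ± 0.29 in NSG (adjusted p = 0.000475) and by -0.90 ± 0.29 in hHGF-NSG hosts (adjusted p = 0.0378). The latter call was lost when any of 5 libraries was left out, namely hHGF-NSG naive replicate 2 or 3 or any 6-week replicate. The limma adjusted p was up to 0.176, without naive replicate 3. That call was also lost with no filter on low values (adjusted p = 0.0689) and with replicate number as a block in the fit (0.0505). At 2 weeks Myh11 was not called in either host (-0.86 and -0.89, adjusted p = 0.0587 and 0.0556).

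Mylk encodes the kinase that phosphorylates the regulatory light chain (chr16:34745210-35002420, plus strand). It was at 6.92, 10.7 and 9.76 FPKM in NSG naive tumours, 6.18, 7.55, 5.66 and 7.18 at 2 weeks and 6.57, 6.61 and 4.67 at 6 weeks. In hHGF-NSG hosts all 10 libraries lay between 6.58 and 9.07 FPKM. Its call at 6 weeks in NSG hosts, -0.54 ± 0.17 (adjusted p = 0.0403), is the smallest change called there. The call was lost without NSG naive replicate 3 or 4 or any of the NSG 6-week replicates, with a limma adjusted p up to 0.185. Also losing it were no filter on low values, replicate number as a block in the fit, and limma-voom on read counts. In hHGF-NSG hosts Mylk changed by -0.02 ± 0.16 at 2 weeks and -0.15 ± 0.17 at 6 weeks (adjusted p = 0.955 and 0.625).

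The tropomyosins, which lie along the actin filament and stabilise it, were abundant and fell by similar amounts at 6 weeks. Tpm1 (chr9:67022590-67049406, minus strand) was at 107, 132 and 169 FPKM in NSG naive tumours, 79.3, 111, 92.2 and 119.7 at 2 weeks, and 48.1, 50.6 and 50.5 at 6 weeks. In hHGF-NSG hosts it was at 205, 123 and 152 FPKM, then 65.3, 88.4, 49.7 and 124, then 61.5, 53.2 and 37.5. The 2-week libraries of hHGF-NSG hosts spanned from the 6-week range to the naive range. Tpm1 changed at 6 weeks by -1.41 ± 0.28 in NSG and -1.64 ± 0.28 in hHGF-NSG hosts (adjusted p = 0.00176 and 0.000572). It was also called at 2 weeks in hHGF-NSG hosts, by -1.01 ± 0.26 (adjusted p = 0.0252), a call lost without naive replicate 1 or 2-week replicate 1 or 3 of that host.

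Tpm2 (chr4:43514711-43523765, minus strand) was at 39.9, 84.2 and 84.6 FPKM in NSG naive tumours, 63.8, 74.4, 55.4 and 68.7 at 2 weeks, and 15.94, 19.97 and 21.7 at 6 weeks. The levels in hHGF-NSG hosts were 66.9, 36.2 and 82.9 FPKM, then 28.6, 37.9, 20.8 and 58.4, then 19.3, 19 and 11.8. Its 2-week libraries lay within the naive range in NSG hosts, and its 6-week libraries lay below all others in both hosts. Tpm2 changed at 6 weeks by -1.74 ± 0.35 and -1.78 ± 0.35 (adjusted p = 0.00193 and 0.00157) and at 2 weeks by -0.01 ± 0.33 and -0.77 ± 0.33, not called (adjusted p = 0.995 and 0.165).

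Lmod1 encodes leiomodin 1, which nucleates actin filaments in smooth muscle (chr1:135324807-135368065, plus strand). It was at 2.61, 2.57 and 8.73 FPKM in NSG naive tumours, 0.438, 1.76, 1.86 and 0.98 at 2 weeks, and 0.186, 0.801 and 0.75 at 6 weeks, where it rested on 2 to 11 reads. Its hHGF-NSG levels were 7.16, 3.89 and 4.55 FPKM, then 1.16, 0.761, 1.49 and 1.22, then 1.15, 1.47 and 1.22. Lmod1 was below every naive library at both times in both hosts, and in hHGF-NSG hosts its 2-week and 6-week levels overlapped fully. With Cnn1 it was called in all 4 comparisons with naive tumours: -1.20 ± 0.32 and -1.499 ± 0.32 at 2 weeks, -1.69 ± 0.34 and -1.41 ± 0.34 at 6 weeks (adjusted p = 0.0272, 0.00905, 0.00221 and 0.00767). The NSG 2-week call of Lmod1 was lost without NSG naive replicate 4 or NSG 2-week replicate 1 or 4, and the hHGF-NSG 2-week call without naive replicate 1. With no filter on low values the NSG 2-week call was lost as well.

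**Figure D2:**
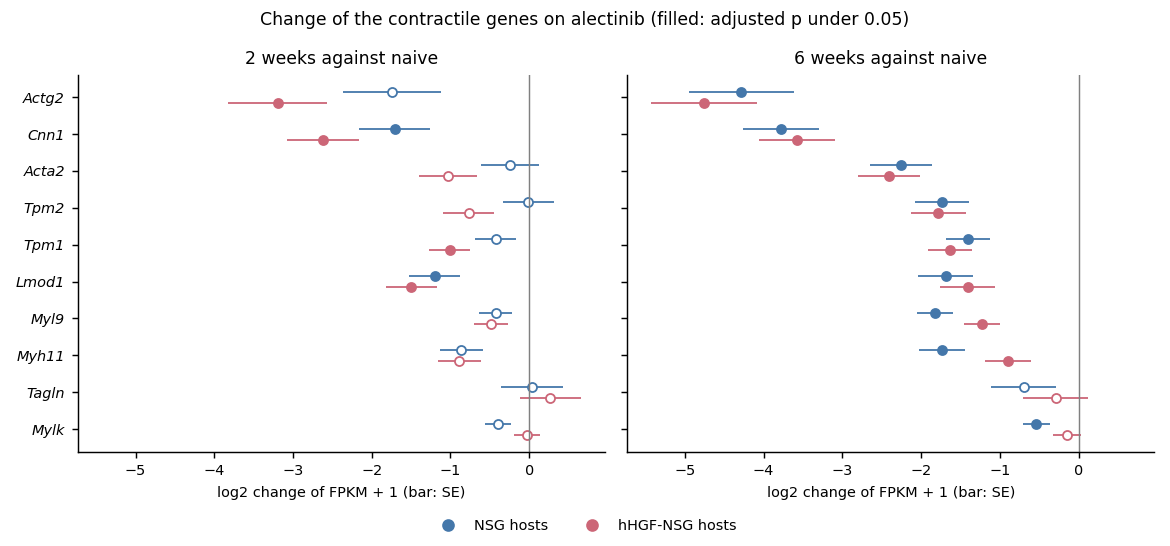
Change in log2(FPKM + 1) against therapy-naive tumours of the same host at 2 weeks (left) and 6 weeks (right), with 1 row per gene; bars are standard errors and filled points have a limma adjusted p under 0.05. At 2 weeks Cnn1 and Lmod1 are filled in both hosts, and at 6 weeks all but Tagln in NSG hosts and all but Tagln and Mylk in hHGF-NSG hosts.

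Members differed in whether they were called between 2 and 6 weeks. Apart from the ratio of Actg2 to Acta2, their timing was not compared by a test. In NSG hosts 6 of 10 (Acta2, Actg2, Cnn1, Myl9, Tpm1 and Tpm2) were called lower at 6 weeks than at 2 weeks, where 1.5% of all tested genes were called lower. Leaving out 1 library gave 3 to 6 genes. The calls of Actg2 and Tpm1 were lost without NSG 2-week replicate 2, 3 or 4 or any NSG 6-week replicate, and that of Cnn1 without 6-week replicate 2 or 3, whereas Acta2, Myl9 and Tpm2 were called each time. Those of Actg2 and Tpm1 were also lost with no filter on low values, and that of Tpm1 with replicate number as a block. In hHGF-NSG hosts none was called lower by limma between 2 and 6 weeks (all tested genes: 0.371%). Limma-voom on read counts called 2 of the 10, and 218 of all 14287 tested genes lower. By limma 6 of 10 had an unadjusted p under 0.05 (all tested genes: 1944 of 14287). Without hHGF-NSG 2-week replicate 3, the library with the lowest level of 7 of the 10 genes in its group, 3 were called there (Acta2, Myl9 and Tpm2), and the share of all tested genes called lower was 1.08%. Whether the step from 2 to 6 weeks differs between hosts was not tested.

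The library labelled NSG naive replicate 1 had the lowest level of 8 of the 10 genes among the NSG naive libraries. Without it 4 genes in place of 2 were called lower at 2 weeks in NSG hosts: Cnn1 (-2.09, adjusted p = 0.0134), Lmod1 (-1.44, adjusted p = 0.0178), Myh11 (-1.10, adjusted p = 0.0278) and Mylk (-0.56, adjusted p = 0.0488). All tested genes called lower then made up 4.66% at 2 weeks and 8.99% at 6 weeks. Actg2 (-2.08, adjusted p = 0.0841), Myl9 (-0.65, 0.085) and Acta2 (-0.42, 0.612) were still not called at 2 weeks.

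At 6 weeks 9 members were called in NSG hosts without that library, and Tagln was again not called (-0.43, adjusted p = 0.565). The actins changed by -2.42 (Acta2, adjusted p = 0.00111) and -4.63 (Actg2, 0.00044), and Cnn1 by -4.15 (5.18e-05). The myosin genes changed by -2.04 (Myl9, adjusted p = 2.35e-05), -1.97 (Myh11, 0.000359) and -0.71 (Mylk, 0.01). Tpm1 was at -1.57 (adjusted p = 0.00186), Tpm2 at -2.09 (0.000585) and Lmod1 at -1.93 (0.00172). The NSG naive mean of Acta2 was then 705 FPKM and that of Actg2 130 FPKM over 2 libraries, 5.42-fold and 28.3-fold above the 6-week means.

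Between hosts, no member was called at any time. In naive tumours the differences of hHGF-NSG against NSG hosts ran from -0.44 to 0.27, 0 genes had an unadjusted p under 0.05, and 0.042% of all tested genes, 6 in number, were called in either direction. Leaving out NSG naive replicate 1 made that share 0.825%, or 117 of 14186 genes, and again no member. At 2 weeks they ran from -1.22 (Actg2) to 0.26 (Mylk), with 2 genes under an unadjusted 0.05 and 0.371% of all genes called. At 6 weeks they ran from -0.25 (Actg2) to 0.83 (Myh11), with 1 gene under an unadjusted 0.05 and 0.252% of all genes called. Of all 14287 tested genes 1437, 1122 and 707 had an unadjusted p under 0.05 in naive, 2-week and 6-week tumours. The difference in response itself, tested as an interaction, was called for no member at 2 weeks (all tested genes: 0.0%) or at 6 weeks (0.007%). No member had an unadjusted p under 0.05 there (all tested genes: 977 and 985 of 14287). The SE of these differences, 0.23 to 0.95, leaves room for sizeable ones: for Actg2 the 2-week response differed by -1.45 ± 0.89. Limma-voom also called 0 members in each of these 5 comparisons, and leaving out the library labelled NSG naive replicate 1, or any other single library, left each count at 0.

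Libraries of a group tended to be high or low for many of the genes at once. At 2 weeks in hHGF-NSG hosts the summed FPKM of the 10 genes was 502, 679, 349.97 and 1117, so that replicate 4 was within the naive range of 1039 to 1616 and replicate 3 within the 6-week range of 208 to 371. Replicate 4 had the highest level of 7 of the 10 genes and replicate 3 the lowest of 7. In NSG hosts the 2-week sums, 686 to 1149 FPKM, overlapped the naive sums of 881 to 1512 and stayed above the 6-week sums of 255 to 299. Across the 20 libraries, each gene's log2 level correlated with the mean of the other 9 at Pearson r = 0.969 for Tpm1, 0.949 for Actg2, 0.943 for Myl9, 0.941 for Cnn1, 0.929 for Acta2 and 0.866 for Tpm2. Myh11 (0.724), Lmod1 (0.723), Mylk (0.602) and Tagln (0.486) followed the others less closely. These values describe the libraries, which share group differences and a common scaling.

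Human reads of the same genes were also counted in these tumours. Over 22 libraries human ACTA2 reached at most 0.275 FPKM (12 reads), ACTG2 0.0688 (4 reads), CNN1 0.499 (25 reads), LMOD1 0.136 (7 reads), MYH11 0.345 (76 reads) and MYLK 0.523 FPKM (219 reads). MYL9 reached 1.86 FPKM (78 reads), TPM2 3.19 (154 reads), TAGLN 3.86 (225 reads) and TPM1 7.50 FPKM (1436 reads). The mouse genes had 589 to 2940 reads per library for Acta2, 158 to 509 for Myl9, 757 to 2582 for Tpm1, 126 to 631 for Tpm2 and 49 to 393 for Myh11. Lower mouse counts were those of Mylk (107 to 467 reads), Actg2 (11 to 425), Cnn1 (1 to 120), Lmod1 (2 to 47) and Tagln (5 to 41). Human reads exceeded mouse reads of the same gene in all 20 libraries for Tagln, in 2 for Cnn1 and in 1 each for Tpm1, Lmod1 and Mylk. Human TPM1 was higher in naive tumours, at 4.24 ± 0.37 (SD, n = 4) and 5.79 ± 1.59 FPKM (n = 3), than in any treated group, where means were 1.35 to 1.92 FPKM. How reads that fit both species were assigned is not given in the sources used here, and their part in the mouse values was not tested.

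The rest of the contractile machinery moved the same way but less far. Of 28 further genes of the apparatus, 27 were tested; 17 were lower and 1 higher at 6 weeks in NSG hosts, and 16 lower and 1 higher in hHGF-NSG hosts. Their median change was -0.81 and -0.88, against -1.73 and -1.52 for the 10 genes above. At 2 weeks 4 and 6 were lower. Over all tested genes 4.48% and 3.56% were lower at 2 weeks, in NSG and hHGF-NSG hosts. At 6 weeks 8.59% and 8.12% were lower, and 8.81% and 9.67% higher. Csrp1, an adaptor of smooth muscle actin, fell at 6 weeks by 1.05 and 1.43 on the log2 scale, and Tpm4, a non-muscle tropomyosin, by 1.18 and 1.28, in NSG and hHGF-NSG hosts. Des, the intermediate filament desmin found in muscle and pericytes, was already lower at 2 weeks (-1.56 and -1.12) and lay at -1.77 and -1.24 at 6 weeks.

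Among the transcriptional regulators of these genes, Srf fell by 1.38 at 6 weeks in NSG hosts (limma adjusted p = 0.00377) and was at -0.68 ± 0.30 in hHGF-NSG hosts, not called (adjusted p = 0.136). With NSG naive replicate 1 left out, Srf changed by -1.65 in NSG hosts (adjusted p = 0.00153). Srf was chosen after its values were seen. Tead1, a partner of the YAP coactivator, was at -0.82 ± 0.24 at 6 weeks in hHGF-NSG hosts (adjusted p = 0.0208) and at -0.67 ± 0.24 in NSG hosts, not called (adjusted p = 0.0573). Myocd, the gene of myocardin, was too low to be tested.

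Among TGF-beta genes some were called in each direction. Of 14 ligands, receptors and early targets, 3 were lower and 3 higher at 6 weeks in NSG hosts, and 5 lower and 2 higher in hHGF-NSG hosts. At 2 weeks 2 were lower and 1 higher in NSG hosts, and 1 lower and 1 higher in hHGF-NSG hosts. Over all tested genes the share called higher was 8.81% and 9.67% at 6 weeks and 3.32% and 3.49% at 2 weeks, in NSG and hHGF-NSG hosts. The share called lower was 8.59% and 8.12% at 6 weeks and 4.48% and 3.56% at 2 weeks. The ligand Tgfb3 rose at 2 weeks (1.40 and 1.39) and stayed higher at 6 weeks (1.23 and 1.26). The co-receptor Tgfbr3 rose by 0.79 and 0.75 at 6 weeks, and the ligand Tgfb2 was called lower in hHGF-NSG hosts (-0.78 ± 0.22, adjusted p = 0.0198) and not in NSG hosts (-0.09 ± 0.22, adjusted p = 0.836).

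**Figure D3:**
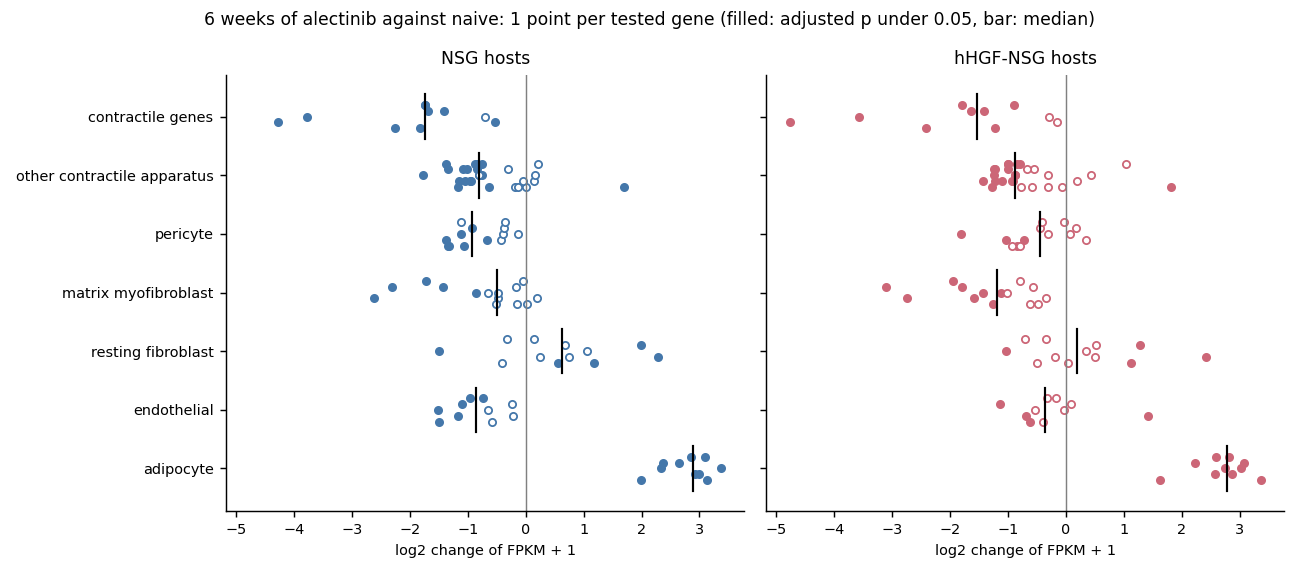
Change in log2(FPKM + 1) at 6 weeks against naive for every tested gene of 7 gene lists, in NSG (left) and hHGF-NSG hosts (right); filled points have a limma adjusted p under 0.05 and black bars are list medians. The 10 contractile genes have medians of -1.73 and -1.52, the adipocyte genes of 2.89 and 2.78.

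Markers of the cells that could carry contractile RNA changed with the same treatment. Of 13 pericyte markers, 7 were lower in NSG hosts at both times, and in hHGF-NSG hosts 5 were lower and 1 higher at 2 weeks and 4 lower at 6 weeks. Among all tested genes 4.48% and 8.59% were lower at 2 and 6 weeks in NSG hosts. In hHGF-NSG hosts 3.56% were lower and 3.49% higher at 2 weeks, and 8.12% lower at 6 weeks. Mcam, a pericyte and endothelial adhesion molecule, fell by 1.34 and 1.10 at 2 weeks and 1.37 and 1.03 at 6 weeks. Rgs5, a pericyte regulator of G protein signalling, changed less, by -0.48 and -0.58 at 2 weeks and -0.67 and -0.73 at 6 weeks. The potassium channel subunit gene Abcc9 and Ndufa4l2 were also lower in all 4 comparisons. None of the 13 was called between 2 and 6 weeks in either host. Of all 14287 tested genes 215 (1.5%) and 53 (0.371%) were then lower, and 341 and 102 higher, in NSG and hHGF-NSG hosts. The summed FPKM of the 13 markers was 310 to 504 in naive NSG tumours, 238 to 257 at 2 weeks and 216 to 222 at 6 weeks. Its hHGF-NSG ranges were 379.6 to 468 (naive), 234 to 273 (2 weeks) and 233 to 242 (6 weeks). The sum of the 10 contractile genes averaged 1202, 909 and 272 FPKM in naive, 2-week and 6-week NSG tumours and 1262, 662 and 297 FPKM in hHGF-NSG tumours. The part of pericyte number in the contractile levels was not tested.

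The level of Acta2 relative to a pericyte gene depended at 2 weeks on which gene was taken, and at 6 weeks it was lower for each of 5 genes tested, 1 of which (Ndufa4l2) lost its call when NSG naive replicate 1 was left out. The ratio of Acta2 to Rgs5 FPKM was 5.38 to 8.40 in naive NSG libraries, 5.90 to 12.1 at 2 weeks and 2.07 to 2.40 at 6 weeks. With human HGF the ranges were 5.92 to 8.84 (naive), 2.21 to 10.5 (2 weeks) and 1.22 to 3.19 (6 weeks). The ratio to Pdgfrb, the platelet-derived growth factor receptor of mural cells and fibroblasts, ran from 7.67 to 9.59 in naive NSG libraries, from 6.71 to 9.05 at 2 weeks and from 1.78 to 2.98 at 6 weeks. Its hHGF-NSG ranges were 7.87 to 14.2 (naive), 3.23 to 10.2 (2 weeks) and 1.85 to 3.13 (6 weeks). Both ratios overlapped the naive range at 2 weeks in both hosts, and no 6-week library reached it.

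The other 3 ratios, like that to Rgs5, lay above the naive range at 2 weeks in some libraries. Acta2 over Mcam stood in NSG libraries at 4.74 to 7.63 (naive), 12.1 to 15.9 (2 weeks) and 3.27 to 3.62 (6 weeks), while hHGF-NSG libraries had 6.14 to 7.94 (naive), 2.99 to 14.4 (2 weeks) and 1.64 to 4.19 (6 weeks). Acta2 over Abcc9 was 55.7 to 71.2 (naive), 98.2 to 139 (2 weeks) and 20.5 to 54.6 (6 weeks) in NSG hosts. With human HGF it was 66.9 to 117 (naive), 47.1 to 199 (2 weeks) and 13.8 to 46.2 (6 weeks). For both, every NSG 2-week library lay above the naive ones, the hHGF-NSG 2-week libraries overlapped them, and every 6-week library lay below. Acta2 over Ndufa4l2 ran from 10.6 to 15.3 (naive), from 13.2 to 50.2 (2 weeks) and from 4.39 to 7.58 (6 weeks) in NSG hosts. For hHGF-NSG libraries these were 7.90 to 11.5 (naive), 9.16 to 27.1 (2 weeks) and 3.04 to 11.2 (6 weeks). In hHGF-NSG hosts its 6-week and naive libraries overlapped.

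The exact two-sided permutation test within hosts gave p = 0.005 at 6 weeks for the ratios to Rgs5, Pdgfrb, Mcam and Abcc9 (adjusted 0.01 over the 12 ratio tests, the smallest raw p possible) and p = 0.02 for that to Ndufa4l2 (adjusted 0.0343). At 2 weeks the adjusted p was 0.753 for Rgs5, 0.0751 for Pdgfrb, 0.119 for Mcam and 0.449 for Abcc9. The ratio to Ndufa4l2 was higher at 2 weeks, by 0.98 in NSG and 0.55 in hHGF-NSG hosts on the log2 scale (exact p = 0.0286, adjusted 0.0429). When the library labelled NSG naive replicate 1 was left out, the adjusted 6-week values were 0.012 for Rgs5, Pdgfrb and Mcam, 0.02 for Abcc9 and 0.06 for Ndufa4l2. The adjusted 2-week values were then 0.581, 0.107, 0.107, 0.459 and 0.106 for Rgs5, Pdgfrb, Mcam, Abcc9 and Ndufa4l2 by exact permutation, so both calls for Ndufa4l2 were lost.

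**Figure D4:**
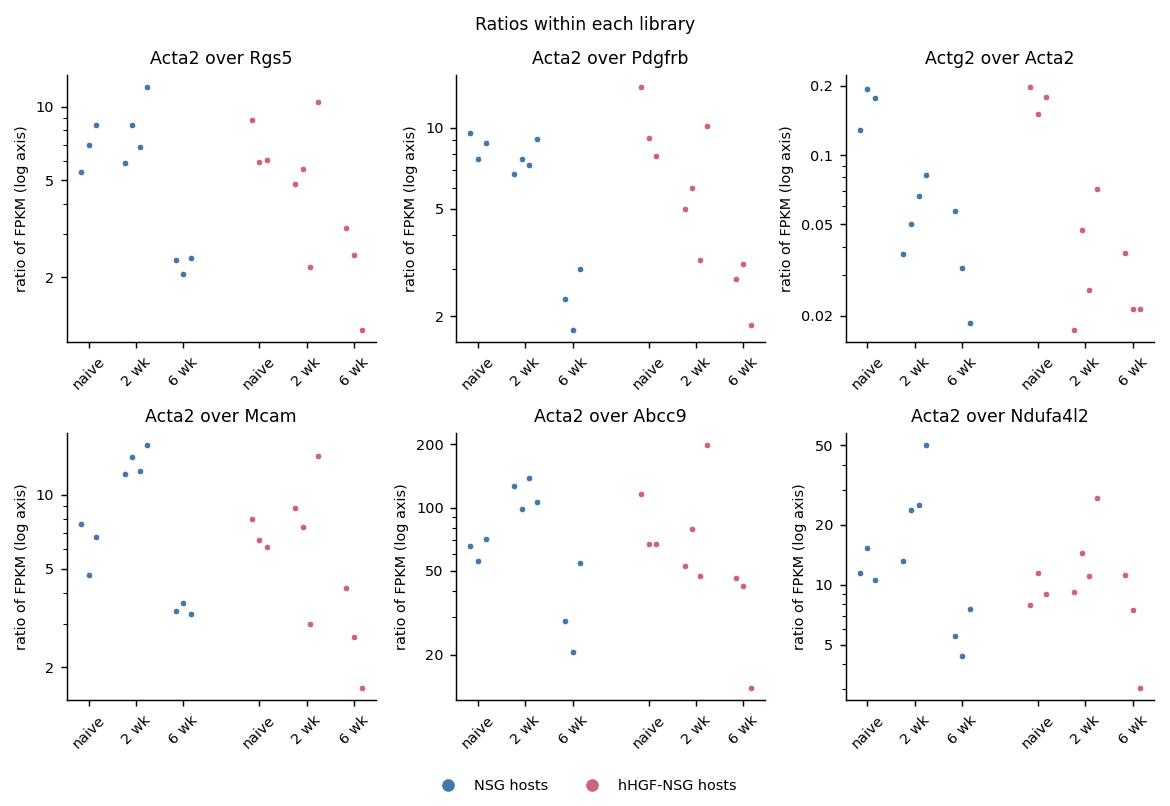
Ratios of FPKM within each library (log axes), with 1 point per library: Acta2 to each of 5 pericyte genes, and Actg2 to Acta2. All Acta2 ratios but that to Ndufa4l2 in hHGF-NSG hosts are lower in every 6-week library than in the naive ones, 2-week positions differ with the pericyte gene, and Actg2 to Acta2 is already lower in all 2-week libraries.

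Matrix genes of fibroblasts were called only lower, and resting fibroblast genes in both directions. Over all tested genes 4.48% and 3.56% were called lower at 2 weeks, and 8.59% and 8.12% at 6 weeks, in NSG and hHGF-NSG hosts. The shares called higher were 3.32% and 3.49%, then 8.81% and 9.67%. List medians at 6 weeks were -0.50 and -1.19 for matrix and 0.62 and 0.19 for resting fibroblast genes. Of 14 matrix genes of myofibroblasts, 2 and 6 were lower at 2 weeks and 5 and 8 at 6 weeks in NSG and hHGF-NSG hosts, and none was higher. Among those that fell at 6 weeks, the matrix glycoprotein gene Tnc changed by -2.30 in NSG and -3.10 in hHGF-NSG hosts, the fibrillar collagen gene Col5a1 by -1.72 and -1.95, and the collagen cross-linking enzyme gene Lox by -1.43 and -1.79. Spp1, the gene of osteopontin, which macrophages also make, changed by -2.62 and -2.74. Of 12 resting fibroblast genes, 4 were higher and 1 lower at 6 weeks in NSG hosts and 3 higher and 1 lower in hHGF-NSG hosts; at 2 weeks 2 were higher and 1 lower in both. The small proteoglycan gene Dcn rose at 6 weeks by 2.00 and 1.28, Gsn, which encodes the actin-severing protein gelsolin, by 2.28 and 2.42, and the matrix gene Dpt by 1.18 and 1.12, while the collagen gene Col15a1 fell by 1.502 and 1.04.

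Genes of other cell types were called as well, and the part of these cells in the contractile values was not tested. All 10 adipocyte genes were higher at 6 weeks in both hosts, and at 2 weeks 0 and 1 were called. Their summed FPKM was 493 to 1919 in naive NSG libraries, 1165 to 2240 at 2 weeks and 5203 to 6421 at 6 weeks. The hHGF-NSG sums were 780.1 to 2452 (naive), 1812 to 7321 (2 weeks) and 7301 to 13819 (6 weeks). Of 10 endothelial genes 5 and 2 were lower at 2 weeks, 6 and 3 at 6 weeks, and 1 (Cldn5, a tight junction gene) was higher at 6 weeks in hHGF-NSG hosts, at 1.42 ± 0.42 (adjusted p = 0.025). Of 10 macrophage genes 0 and 2 were lower at 2 weeks and 3 and 3 at 6 weeks. Their median change at 6 weeks was -0.22 and -0.27. Macrophage sums averaged 5435 FPKM in naive and 5789 in 6-week NSG tumours, and 5160 and 4864 in hHGF-NSG tumours. Over all tested genes 4.48% and 3.56% were lower at 2 weeks, and 8.59% and 8.12% at 6 weeks. At 6 weeks 8.81% and 9.67% were higher.

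Genes of striated muscle were low in most libraries. Of 13 skeletal muscle genes only 3 were high enough to test, their summed FPKM was 1.91 to 59.3 per library, and Tnnc2 and Pvalb were at 0 in every group. Acta1, skeletal muscle actin, was lower in NSG hosts at 2 weeks (-2.38 ± 0.68, adjusted p = 0.037). NSG naive replicate 4 alone had the high sum of 59.3, the other NSG naive libraries had 3.73 and 6.09, and without replicate 4 Acta1 was at -1.18 and not called (adjusted p = 0.196). That replicate also had the highest level of 7 of the 10 contractile genes among the NSG naive libraries, and the part of striated muscle in those levels was not tested. In hHGF-NSG hosts Acta1 was at 2.01 ± 0.72 at 6 weeks and not called (limma adjusted p = 0.0616). With NSG naive replicate 4 left out it was called there (adjusted p = 0.00659). Skeletal muscle sums in hHGF-NSG hosts were 1.91 to 4.10 FPKM in naive tumours and 5.09 to 16.9 at 6 weeks. Of 8 cardiac genes 1, Actc1, was tested and not called, the summed level was at most 1.97 FPKM, and Myl7 and Nppa were at 0 in every group.

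The list counts in NSG hosts were repeated without the library labelled NSG naive replicate 1. Of all tested genes 4.66% were then called lower at 2 weeks and 8.99% at 6 weeks. The shares called higher were 3.02% and 9.22%. The further contractile genes then had 4 lower at 2 weeks, and 14 lower and 1 higher at 6 weeks. Pericyte genes had 7 and 9 lower at 2 and 6 weeks, endothelial genes 6 and 7, and macrophage genes 0 and 2. The TGF-beta list had 3 lower and 2 higher at 2 weeks and 4 lower and 2 higher at 6 weeks. Matrix genes had 2 and 5 lower, and resting fibroblast genes 1 lower at each time with 1 and 3 higher. Dpt was not called at 6 weeks without it (1.15, adjusted p = 0.0685). Adipocyte genes had 2 and 10 higher, and Actc1 was called lower at both times (-0.97 and -0.96, adjusted p = 0.0332 and 0.0252).

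By likeness of pattern over the 20 libraries, the 5 genes closest to the mean of the 10 among 6934 candidates were Col18a1 (r = 0.964), Smtn (0.962), Loxl2 (0.952), Efnb2 (0.952) and Basp1 (0.944). Smtn encodes smoothelin, a smooth muscle protein, and is also in the list of further contractile genes. Loxl2, a lysyl oxidase that acts on collagen, averaged 99.9, 47.6 and 19.5 FPKM in naive, 2-week and 6-week NSG tumours and 115, 38.9 and 20.9 in hHGF-NSG tumours. Col18a1, a basement membrane collagen, averaged 69.1, 46.0 and 19.1 FPKM and 59.0, 34.0 and 21.6. Efnb2, a ligand of vessel and mural cells, fell at 6 weeks by 1.86 and 1.43, and Basp1, a membrane-associated signalling protein, by 1.31 and 1.27.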

How the data were processed

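Bulk RNA of 22 xenograft tumours was sequenced and mapped to the human and the mouse genome; the deposited tables give FPKM per gene, computed by the authors from whole reads, per the file headers and values. The library sizes implied by the mouse FPKM were 0.947 to 1.11 times the read totals, so the authors' scaling was not by the total alone. The builds hg38 (GRCh38) and mm10 and the tool DESeq2 are named in the submitters' processing notes; aligner, counting strand and species separation were not stated in the sources used here. FPKM times gene length gave whole reads within 0.05 for 100% of the low values.

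The mouse values, as log2(FPKM + 1), were fitted in limma 3.58.1 (R 4.3.3) with 1 mean per group and a mean-variance trend over 14287 genes that reached an FPKM of 1 in 3 or more of 20 samples. Benjamini-Hochberg adjustment ran over all tested genes in each of 11 comparisons; the threshold was 0.05. The fit was first tested on simulated data. Single ratios used exact permutation. No 2 replicates agreed within sampling noise (chi-square per degree of freedom at least 3.95).

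The 10 genes and the 11 other gene lists were chosen with earlier results of these data known. Some genes of these lists, and 1 list as a whole, are not reported here. All 10 genes are named in every comparison. Each other list is represented by up to 4 tested genes with the largest change among those called in hHGF-NSG hosts at 6 weeks, or, with none called, the highest mean. The 5 protein-coding genes of mean FPKM of at least 5 most correlated with the members are also named. The alternatives were another pseudocount, no filter, median ratio scaling, a replicate block, voom on recovered reads and leaving out each library.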

Additional observations from a re-analysis of the deposited data

Results flagged for a closer look

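Of the 20 groups of 4 libraries examined (10 genes in each host at 2 weeks), 1 had a library far from the others by Dixon's test at the 95% level, and chance flags about 1 in 20 such groups. It was Cnn1 in hHGF-NSG hosts at 2 weeks, where replicate 4 stood at 8.56 FPKM and the other 3 libraries between 1.01 and 2.01. The same library had the highest level of 7 of the 10 contractile genes in its group.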

How the results depend on the processing

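Of 700 recomputed single-gene changes, 620 kept their direction and their side of the threshold, 47 of the called ones lost the call, 14 gained one and 19 changed sign, none of them called. The counts of called genes at 6 weeks held at 8 to 9 in NSG and 7 to 8 in hHGF-NSG hosts when single libraries were left out. At 2 weeks they ranged from 0 to 4 in NSG and from 3 to 5 in hHGF-NSG hosts, and between 2 and 6 weeks from 3 to 6 and from 0 to 3. The NSG 2-week count of 2 was 1 with a pseudocount of 0.1 and 0 with no filter on low values, which tests more genes. Limma-voom called 2 genes in hHGF-NSG hosts between 2 and 6 weeks in place of 0. Of all 14287 tested genes it called 218 lower there in place of 53. The cause was not tested. Counts between hosts and of differences in response stayed at 0 under every alternative run. Same-numbered libraries did not deviate together (1 of 43 pairs correlated over 0.1, median -0.009). This check showed no pairing by number, but with 3 or 4 libraries per group it cannot exclude one. Counts with a replicate block, in NSG and hHGF-NSG hosts, were 2 and 5 at 2 weeks and 8 and 7 at 6 weeks. Between 2 and 6 weeks they were 5 and 0.

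Changes that turned sign were all small and not called. In NSG hosts at 2 weeks they were Tagln (-0.14 with voom, -0.20 to 0.31 without single libraries) and Tpm2 (0.0188 with the replicate block, 0.0252 with voom, -0.37 to 0.17 without single libraries). Without single libraries of hHGF-NSG hosts, Tagln ranged from -0.063 to 0.61 at 2 weeks and from -0.62 to 0.0503 at 6 weeks, and Mylk at 2 weeks from -0.0734 to 0.0400. Between 2 and 6 weeks Myh11 ranged from -0.15 to 0.087, with 0.0062 under the replicate block, and Lmod1 from -0.0052 to 0.16. Depth limits the low genes most: Tagln, Cnn1 and Lmod1 rest on as few as 5, 1 and 2 reads in a library.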
